A study of Mus musculus with 12 samples.

Results

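The genes described here are 9 genes of inhibitory neurons in the mouse cerebellar cortex, given as a list of symbols of known role. They are 9 of 54752 genes in the count table. They comprise the enzymes of GABA synthesis (Gad1, Gad2), the vesicular GABA transporter (Slc32a1) and 6 genes known from cerebellar interneurons (Kit, Sorcs3, Ptprk, Nxph1, Tfap2b and Prkcd). RNA was measured by poly(A) sequencing in 12 libraries, 1 per mouse, with 4 mice in each of 3 diet groups. All mice were wild-type males of the F1 hybrid of C57BL6J and FVB, aged 12 weeks. They had been fed ad libitum (AL), under dietary restriction (DR) or on a ketogenic diet (KD). According to the study's methods, DR mice received their food once a day shortly before the dark period and were killed early in the dark without that meal, AL and DR samples were chosen on RNA quality, and the dissected piece was part of the cerebellar cortex without the nuclei. The composition of the ketogenic diet is not given in the sources used here.

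GABA is made from glutamate by glutamate decarboxylase, whose forms are encoded by Gad1 and Gad2, and the Slc32a1 product loads it into synaptic vesicles. In the cerebellar cortex, molecular layer interneurons (basket and stellate cells), Golgi cells and Purkinje cells all use GABA, so Gad1, Gad2 and Slc32a1 do not mark interneurons alone. Molecular layer interneurons contact Purkinje cells, and their Kit receptor faces Kit ligand made by Purkinje cells. Sorcs3 and Ptprk are known from one transcriptomic class of molecular layer interneuron, and Nxph1 from another.

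Tfap2b encodes a transcription factor of the AP-2 family, needed in GABAergic lineages of the cerebellum, and such factors bind the palindrome GCCNNNGGC. The promoter windows of the 9 genes (RefSeq, GRCm38.p6, 250 bases before to 50 bases after the annotated start, both strands) were therefore searched for it. The palindrome occurred in 5450 of 32851 windows over the whole annotation, or 16.6%, and in 3 of the 9 member genes. It occurred at 2 places in Gad2 and at 1 place each in Kit and Prkcd. The share over the annotation is of windows and the member count is of genes, and Kit and Prkcd have several windows. The fixed letters of the palindrome are all G or C. The matching windows had 61.3% G and C in Gad2, 69% in Kit and 69.3% in Prkcd, beside a median of 52.7% over all windows. Whether the 9 genes hold more matches than other genes was not tested. A match is a description of the letters only, and no binding was measured. The stretches around these matches are given 5′ to 3′ on the gene's strand, with the palindrome in capitals.
Gad2, chr2:22622077-22622105 (+): gtgaaattGCCCTCGGCcaccattccaat
Gad2, chr2:22622194-22622226 (+): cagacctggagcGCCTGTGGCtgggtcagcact
Kit, chr5:75574841-75574873 (+): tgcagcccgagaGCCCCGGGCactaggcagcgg
Prkcd, chr14:30626397-30626429 (−): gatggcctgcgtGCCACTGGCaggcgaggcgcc

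Libraries held between 31712084 and 40798644 counts assigned to genes, with a median of 36674269, and no library was left out. All 9 genes passed the filter on low counts, with the fewest reads for Nxph1, at 230 to 406 per library, and the most for Gad1, at 16967 to 23633. Levels are given as CPM, a gene's counts scaled to a fixed library total after TMM scaling over the 12 libraries, and between genes only per kilobase of exon. The tissue label was checked against Slc17a6, a gene of the excitatory neurons of the cerebellar nuclei. It was too low to be tested in any comparison, at a mean of 0.206 to 0.347 CPM by diet. Of the 4 markers of cerebellar nuclei and brainstem examined, only Spp1 could be tested, at a mean of 2.95 to 3.49 CPM by diet. Purkinje cell markers summed to 6806 to 8634 CPM and granule cell markers to 4998 to 5506 CPM in individual mice.

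By level per kilobase of exon, Gad1 was the highest of the 9 genes, at a mean of 72.3 CPM per kb over 12 mice. Slc32a1 followed at 43.6 CPM per kb, Gad2 at 26.4, Kit at 25.2 and Prkcd at 18.1. Tfap2b stood at 14.9 CPM per kb, Sorcs3 at 5.92, Ptprk at 3.77 and Nxph1 at 1.82. The order was the same in the means of all 3 diets and in 9 of the 12 single libraries. Gad2 and Kit could not be separated, since their ranges overlapped and Gad2 was the higher gene in 9 of 12 mice, by 1.05 times in the mean. The ranges of Prkcd and Tfap2b also overlapped, although Prkcd was higher in each of the 12 mice. The other 6 neighbouring pairs in this order had ranges that did not overlap. Gad1 lies on chromosome 2 (70553072 to 70602014, + strand), as do Gad2 (22622205 to 22693874) and Slc32a1 (158610767 to 158615748). Of the exonic bases of Slc32a1, 24.9% lie under the opposite-strand gene Gm14205, and since the library kit does not keep strand, reads there cannot be assigned to one gene. Kit lies on chromosome 5 (75574916 to 75656722, + strand), Tfap2b on chromosome 1 (19208914 to 19238576, +) and Nxph1 on chromosome 6 (8948431 to 9249032, +). Ptprk lies on chromosome 10 (28074820 to 28597397, +), Sorcs3 on chromosome 19 (48206025 to 48805505, +) and Prkcd on chromosome 14 (30595354 to 30626210, −). All positions are of GRCm38.p6. The exons of the other 8 genes were not overlapped by another annotated gene.

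**Figure D1:**
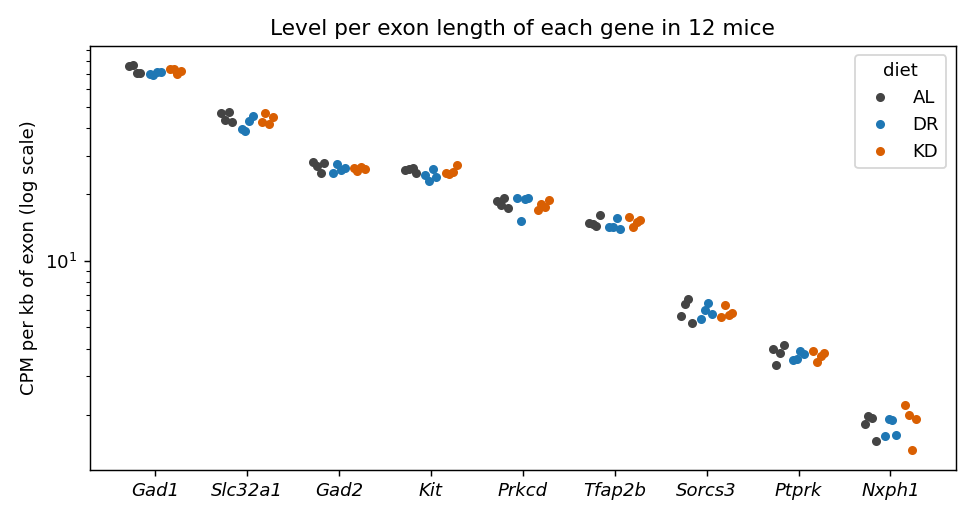
Level of each of the 9 genes in CPM per kilobase of exon on a log scale, with 1 point per mouse coloured by diet, ordered by mean. Gad1 sits highest at a mean of 72.3 and Nxph1 lowest at 1.82, and the diets lie on top of each other within each gene.

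The genes that make and load GABA differed little between mice. Gad1 was at 582, 588, 541 and 543 CPM in the 4 AL mice, at 536, 529, 546 and 546 CPM in the DR mice, and at 566, 565, 534 and 553 CPM in the KD mice. The highest Gad1 levels were those of 2 AL mice, yet the other 2 AL mice lay inside the DR range. Gad2 was at 166, 158, 148 and 163 CPM in AL mice, at 147, 161, 151 and 155 in DR mice, and at 154, 150.5, 156 and 154 in KD mice. The groups overlapped, and the KD mice were the most tightly placed. Slc32a1 was at 131, 122, 133 and 119 CPM in AL mice, at 111, 109, 120 and 127 in DR mice, and at 119, 131, 117 and 126 in KD mice. The lowest pair of Slc32a1 values came from DR mice, while the other DR mice lay inside the AL range.

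Kit, the receptor tyrosine kinase of these interneurons, was at 230, 232, 235 and 223 CPM in AL mice, at 218, 204, 232 and 213 in DR mice, and at 222, 221, 225 and 243 in KD mice. One DR mouse lay among the AL mice and the other 3 lay below them. Sorcs3, a sorting receptor of the sortilin family, was at 31.8, 36.001, 38.1 and 29.4 CPM in AL mice, at 30.7, 33.8, 36.4 and 32.5 in DR mice, and at 31.5, 35.5, 32.1 and 32.6 in KD mice. The AL mice held both the highest and the lowest Sorcs3 values. Ptprk, a receptor protein tyrosine phosphatase, was at 53.3, 45.2, 51.1 and 55.3 CPM in AL mice, at 47.4, 47.9, 52.1 and 50.8 in DR mice, and at 52.1, 46.5, 49.6 and 50.9 in KD mice. All DR and KD values of Ptprk lay within the AL range.

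Nxph1, a secreted ligand of alpha-neurexins, was at 8.70, 9.47, 9.21 and 7.29 CPM in AL mice, at 7.66, 9.11, 9.03 and 7.78 in DR mice, and at 10.5, 9.51, 6.59 and 9.16 in KD mice. The KD mice held the highest and the lowest Nxph1 values. Tfap2b was at 94.5, 93.1, 91.2 and 102.5 CPM in AL mice, at 90.6, 90.0, 99.3 and 88.7 in DR mice, and at 100.2, 90.4, 94.997 and 97.4 in KD mice. The groups overlapped, although 3 of the DR values were below every AL value. Prkcd, the delta isoform of protein kinase C, was at 103.5, 99.5, 106 and 96.4 CPM in AL mice, at 107, 84.1, 106 and 107 in DR mice, and at 94.4, 99.995, 97.7 and 105 in KD mice. One DR mouse lay well below all others and the other 3 DR mice lay at the upper end.

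**Figure D2:**
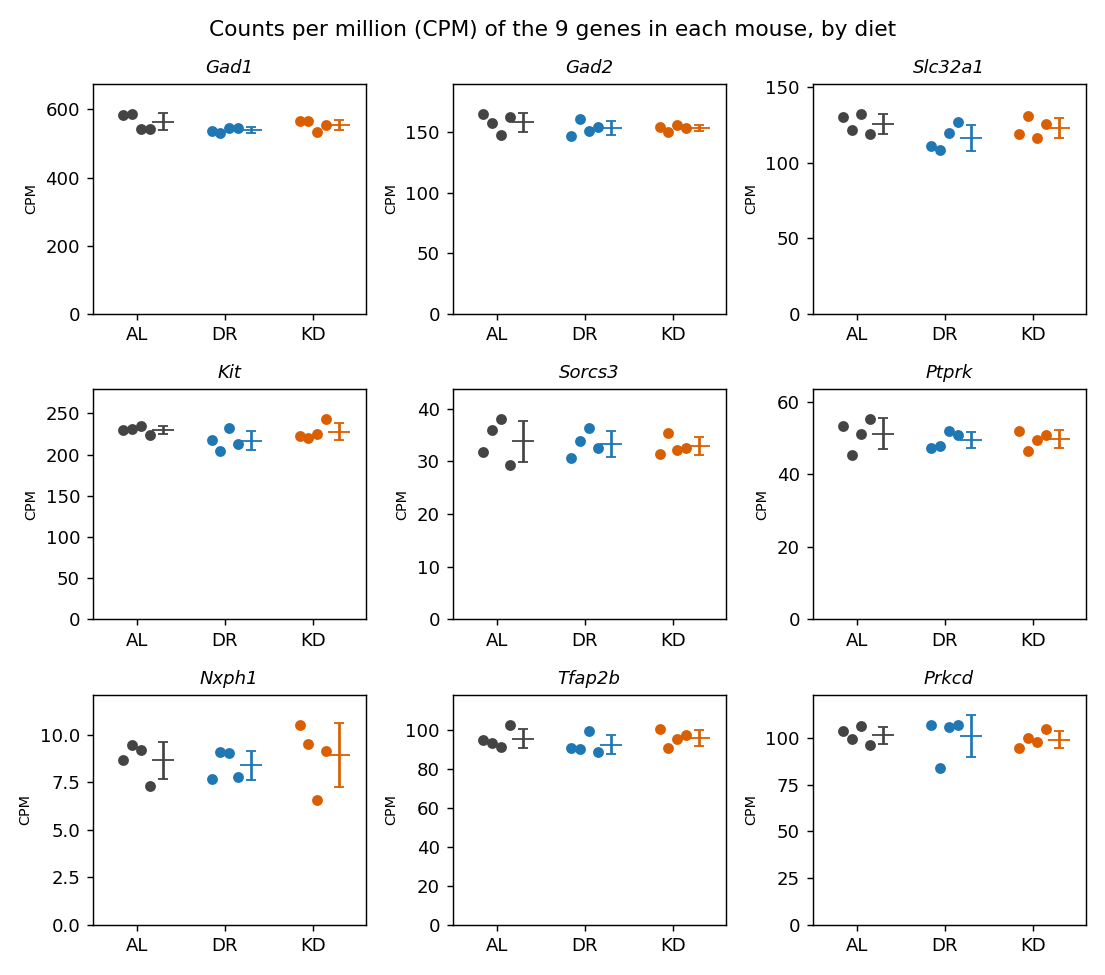
CPM of each of the 9 genes in each of the 12 mice, grouped by diet, with points for mice and the mean and SD of 4 mice. The diets overlap for every gene, from Gad1 at 529 to 588 CPM to Nxph1 at 6.59 to 10.5 CPM.

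Over the 12 mice, the coefficient of variation was 3.43% for Gad1, 3.71% for Gad2 and 4.65% for Kit. It was 4.80% for Tfap2b, 5.88% for Ptprk, 6.36% for Slc32a1 and 6.79% for Prkcd. Sorcs3 and Nxph1 varied most, at 7.79% and 12.9%. Counting error alone gives 0.707% for Gad1, 2.88% for Sorcs3 and 5.68% for Nxph1, so depth matters most for Nxph1.

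The first comparison asked whether dietary restriction changed these genes. None of the 9 genes passed in DR against AL (edgeR quasi-likelihood test, Benjamini-Hochberg adjusted p under 0.05), against a background of 583 of 19052 genes, or 3.06%. None passed at an unadjusted p under 0.05 either, where 18% of all genes did, and DESeq2 gave 0 of 9 on both counts. For none of the 9 genes were the DR and AL mice without overlap, against 10.9% of all genes tested. The log2 fold change was below 0 for all 9 genes, with a median of -0.05 beside 0.00 over all genes. Each 95% interval included 0, and Prkcd turned to 0.02 when libraries were scaled by size alone. In a bulk sample, fewer cells of a type and less RNA per cell cannot be told apart.

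Slc32a1 had the lowest value of the group in DR against AL, with a log2 fold change of -0.11 (SE 0.06, 95% interval -0.23 to 0.01, adjusted p = 0.322, edgeR). Its mean was 117 ± 8.57 CPM in DR and 126 ± 6.65 CPM in AL mice (SD, n = 4). Kit had a log2 fold change of -0.08 (SE 0.05, 95% interval -0.18 to 0.01, adjusted p = 0.360, edgeR), and Gad1 one of -0.06 (SE 0.04, 95% interval -0.16 to 0.03, adjusted p = 0.485, edgeR). The values of the remaining 6 genes lay between -0.05 and 0.00, with adjusted p from 0.678 to 0.983 (edgeR). The widest interval was that of Nxph1, from -0.26 to 0.16.

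What this comparison could have called depends on the gene. With the spread and threshold of the fit, Gad1 would have needed to be 11.1% lower in DR than in AL mice to pass, Kit 11.6%, Gad2 11.9% and Tfap2b 12.7%. Slc32a1 would have needed 14%, Ptprk 15.1%, Prkcd 16.8%, Sorcs3 18.8% and Nxph1 23.7%. These are the observed differences needed to pass in this fit of 4 mice per diet, and the power to detect a true difference was not computed.

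KD against AL gave no called gene among all 19036 tested (edgeR), or 0%, with 928 genes at an unadjusted p under 0.05 and 10 called by DESeq2. Of the 9 genes none passed, none had an unadjusted p under 0.05 (4.87% of all genes did), DESeq2 gave 0 of 9 on both counts, and all had an adjusted p of 0.994. For none of the 9 were KD and AL mice without overlap, against 2.96% of all genes. Their log2 fold changes ran from -0.04 for Gad2 to 0.05 for Nxph1, with Gad1 at -0.02, Slc32a1 at -0.03 and Kit at -0.01. The 95% interval of Nxph1 was again the widest, from -0.22 to 0.31.

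KD against DR called 942 of 19087 genes, or 4.94%, and none of the 9 (edgeR). At an unadjusted p under 0.05 the count was 0 of 9 beside 18.7% of all genes, and DESeq2 again gave 0 of 9. For none of the 9 were the groups without overlap, against 11.8% of all genes. Slc32a1 had a log2 fold change of 0.08 (95% interval -0.04 to 0.19, adjusted p = 0.479, edgeR) and Kit one of 0.07 (95% interval -0.03 to 0.17, adjusted p = 0.464, edgeR). With 1 mouse left out, these values ran from 0.04 to 0.12 for Slc32a1 and from 0.04 to 0.11 for Kit, and neither was called. Gad1 stood at 0.04 and Gad2 at 0.00. The DR mice are the same as in the first comparison, so the opposite signs there and here are not independent of each other.

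**Figure D3:**
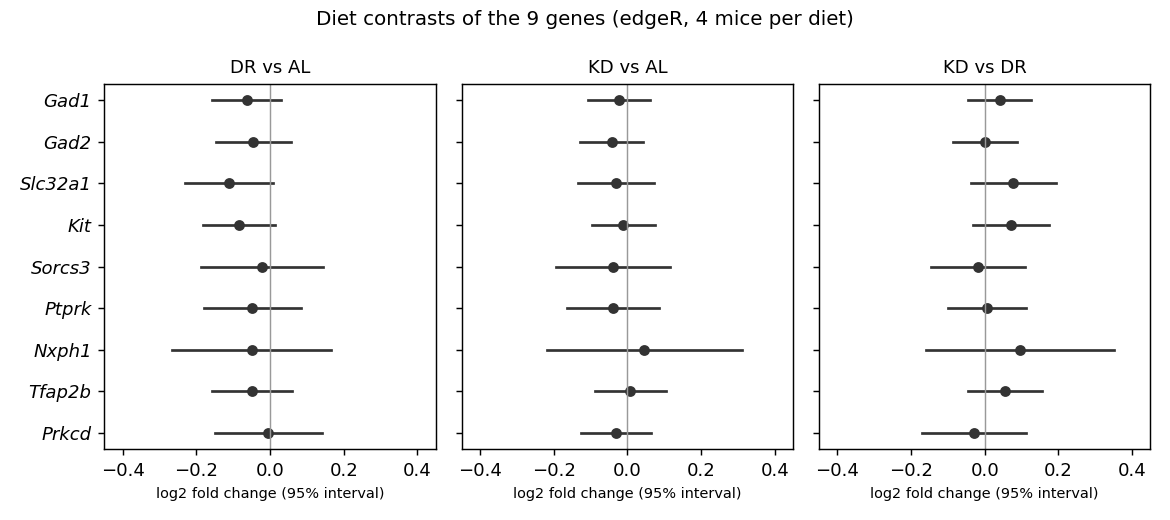
Log2 fold changes of the 9 genes with their 95% intervals (edgeR, 4 mice per diet) for DR against AL, KD against AL and KD against DR. All 27 intervals cross 0, and those of Nxph1 are the widest.

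Ratios within a mouse remove scaling between libraries. Per kilobase, Gad1 exceeded Gad2 by a mean of 2.74 times in AL, 2.701 times in DR and 2.78 times in KD mice. Sorcs3 exceeded Nxph1 by 3.29 times in AL and 3.36 times in DR mice, and in KD mice the ratio ran from 2.52 to 4.11. Of 15 exact permutation tests on 5 such ratios (two-sided, smallest possible p 0.0286), all had an adjusted p of 0.857 or more. After adjustment for 15 tests a single ratio could not have passed, even at the smallest possible p. These tests therefore do not show that the ratios were unchanged. Among the 9 genes, deviations from the diet means over the 12 mice gave correlations of -0.60 to 0.71 over 36 pairs, with a median of 0.13, and 3 pairs had an unadjusted p under 0.05. After adjustment for 36 pairs none passed a permutation test of pairings within diets.

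The genes whose deviations followed the mean of Gad1, Gad2 and Slc32a1 most closely over the 12 mice, among 10065 genes, were Sgsm3 (r = 0.912), Nell1 (r = 0.906), Ccdc97 (r = 0.900), Zfp282 (r = 0.899) and Skor2 (r = 0.883). They were chosen for this likeness, so r is a description, and the points share their libraries. Between the averaged genes themselves, r was 0.16 for Gad1 and Gad2, 0.31 for Gad1 and Slc32a1 and -0.32 for Gad2 and Slc32a1. None of these pairs passed the permutation test, so their mean need not stand for a shared pattern.

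Beyond these 9 genes, the other steps of GABA handling were also examined. Of 6 genes of GABA uptake and breakdown, none was called in any of the 3 comparisons. Slc6a13, a GABA transporter, had a value of 0.55 on the log2 scale in DR against AL (SE 0.16, adjusted p = 0.0722, edgeR), which did not pass. It was called in 5 of 14 alternative settings, among them DESeq2 (adjusted p = 0.0118) and the fits without AL replicate 1 or DR replicate 1, and its adjusted p reached 0.184 without DR replicate 3 (edgeR). Of 11 genes of glutamate and glutamine supply, none was called in DR against AL or KD against AL and 2 were in KD against DR. Glul, which makes glutamine in glia, was at 1051 CPM in DR and 897 CPM in KD mice (log2 fold change -0.23, adjusted p = 0.0141, edgeR). Its mean in AL mice was 929 CPM. Slc38a3, a glutamine transporter, was at 51.1 CPM in DR and 59.2 CPM in KD mice (log2 fold change 0.21, adjusted p = 0.0220, edgeR). Its mean in AL mice was 56.9 CPM. Against AL, Glul had log2 fold changes of 0.18 in DR and -0.05 in KD mice. Those of Slc38a3 were -0.15 in DR and 0.06 in KD mice. Without DR replicate 3 neither passed, at an adjusted p of 0.0559 for Glul and 0.0686 for Slc38a3 (edgeR), and Slc38a3 also did not pass without DR replicate 1 or without KD replicate 2, 3 or 4 (highest adjusted p 0.0850).

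Of the 23 ligands, binding partners and paralogues of the 9 genes, 22 could be tested. In DR against AL 3 were lower and none higher, beside backgrounds of 1.74% lower and 1.32% higher, with a median log2 fold change of -0.11 over the list. Sort1, a paralogue of Sorcs3, fell from 183 to 159 CPM (adjusted p = 0.0425, edgeR). Ptprm, a paralogue of Ptprk, fell from 105 to 88.3 CPM (adjusted p = 0.0451, edgeR). Of the 22 genes, 18 had values below 0 and 4 above. Among the 4 were another paralogue of Sorcs3, Sorcs1 at 0.23, and another of Ptprk, Ptpru at 0.20. Neither was called. With 1 of the 8 mice left out in turn, Sort1 and Ptprm passed only without DR replicate 4. The highest adjusted p (edgeR) was then 0.124 for Sort1 and 0.154 for Ptprm. In KD against DR, 2 of the 22 were higher, Kitl and Ptprm, beside backgrounds of 2.43% higher and 2.51% lower, and none was lower. Ptprm differed by 0.21 on the log2 scale (adjusted p = 0.0438, edgeR), which passed only without DR replicate 4 when 1 mouse was left out (highest adjusted p 0.128). The neurexins, which bind the Nxph1 product, were not called.

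Kit ligand (Kitl) is the partner of the Kit receptor. It was at 137, 135, 128.5 and 131 CPM in AL mice, at 118, 113, 113 and 126 in DR mice, and at 133, 135, 142 and 133 in KD mice. The DR mice lay below all AL and KD mice, which was also so for Ptprm and Sort1. Kitl was higher in KD than in DR mice (log2 fold change 0.21, SE 0.05, adjusted p = 0.0134, edgeR). In DR against AL its log2 fold change was -0.18 (adjusted p = 0.0519, edgeR), which did not pass. That value lay at the threshold, and Kitl was called in 7 of the 14 alternative settings, with an adjusted p from 0.0102 (DESeq2) to 0.169 (edgeR, without AL replicate 1). With 1 mouse left out it was called without AL replicate 3 or DR replicate 4. Kit itself was not called in either comparison. The KD against DR call for Kitl was lost without DR replicate 3 (adjusted p = 0.0510, edgeR) and without KD replicate 3 (adjusted p = 0.0566, edgeR). The Kit to Kitl ratio was 1.148 in AL, 1.223 in DR and 1.11 in KD mice. For KD against DR the exact permutation test gave p = 0.0857, adjusted p = 0.857, where a single ratio could not have passed after adjustment.

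**Figure D4:**
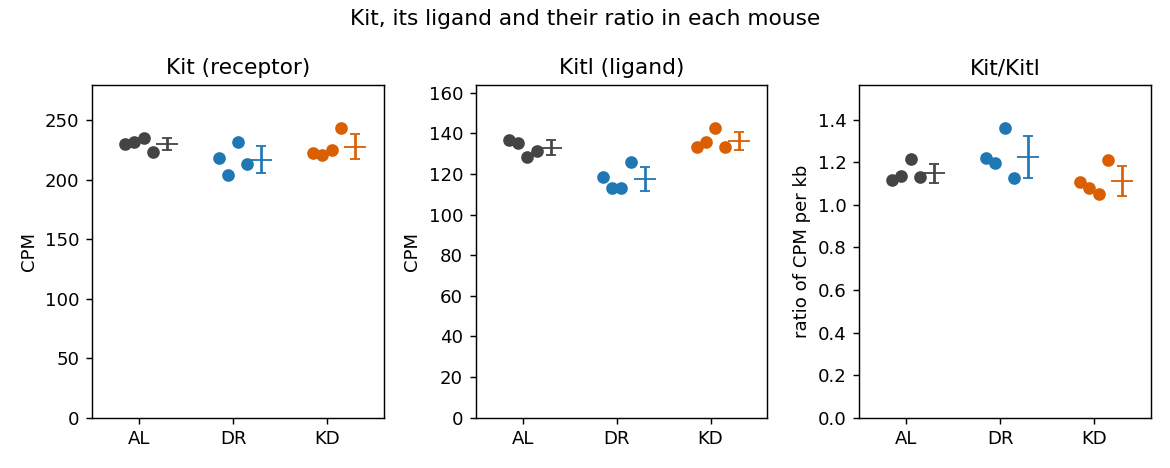
Levels of Kit and of its ligand Kitl in CPM, and their ratio per kilobase, for each mouse by diet, with the mean and SD of 4 mice. Kitl in the DR mice runs from 113 to 126 CPM, below all AL and KD mice, while Kit overlaps between diets.

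Markers of the other GABA-using cells moved with diet in places. Among 7 markers of Golgi and Purkinje layer interneurons, Lgi2 was the only gene called. It was at 155, 145, 153 and 144 CPM in AL mice, at 188, 190, 197 and 196 in DR mice, and at 145, 166, 159 and 164 in KD mice. The DR mice lay above all others. Lgi2 was higher in DR than in AL mice (log2 fold change 0.37, SE 0.04, adjusted p = 0.000507, edgeR) and lower in KD than in DR mice (log2 fold change -0.28, adjusted p = 0.00244, edgeR). The other 6 markers were not called and did not share a direction in DR against AL. Slc6a5, Grm2 and Gjd2 had log2 fold changes of 0.05 to 0.17. Sst stood at 0.35, at a mean of only 0.35 CPM in AL, 0.44 CPM in DR and 0.52 CPM in KD mice. Klhl1 stood at -0.48 (adjusted p = 0.134, edgeR) and Aldh1a3 at -0.31, both at a mean of under 4 CPM in every diet. Of 7 Purkinje cell markers, 1 was called lower in DR against AL (Car8). All 7 had values below 0, from -0.25 for Car8 to -0.04 for Pcp2. Their summed levels were 6806 to 7852 CPM in DR and 8091 to 8634 CPM in AL mice. Itpr1 contributed most to the sum, at a mean of 3769 CPM in DR and 4394 CPM in AL mice. It was not called (adjusted p = 0.0869, edgeR). In KD against DR, Car8 was higher and was the only one of the 7 called. The summed level of the 3 GABA genes was 794 to 828 CPM in DR and 821 to 879 CPM in AL mice, and the part of Purkinje cells in it was not tested.

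Among 7 transcription factors of GABAergic lineages, of which 6 could be tested, and 7 scaffold genes of the inhibitory postsynapse, none was called in any of the 3 comparisons. Over all genes, 1.74% were called lower in DR against AL and 2.43% higher in KD against DR. Of 6 markers of Bergmann glia and astrocytes, 3 were lower in DR against AL and 2 were higher in KD against DR. Of 6 oligodendrocyte markers, 1 was lower in DR against AL and 2 were higher in KD against DR. In DR against AL none was called among 7 granule cell, 5 microglia, 5 endothelium and mural, 4 unipolar brush cell or 2 oligodendrocyte precursor markers, or among the tested markers of choroid plexus and meninges and of cerebellar nuclei and brainstem. In KD against DR, 1 granule cell marker was higher and 1 lower, 1 choroid plexus and meningeal marker was higher, and none of the others was called. In KD against AL no marker of any list was called (edgeR). The part of these cells in the values of the 9 genes was not tested.

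The wider molecular layer interneuron list taken from published single-cell data held 49 genes here, of which 3 (Gad1, Gad2, Kit) are among the 9. In DR against AL, 3 of its genes were lower and none higher, beside 1.74% lower and 1.32% higher over all genes, and the median log2 fold change was -0.07 over the list and 0.00 over all genes. Shank2, a postsynaptic scaffold gene that the study lists as expressed mainly in Purkinje cells, fell from 443 to 369 CPM (adjusted p = 0.0219, edgeR). Rgs7bp fell from 418 to 368.5 CPM (adjusted p = 0.0243, edgeR). In KD against DR, 3 were higher, Shank2 and Pkp4 among them, and 1 was lower (Sgk1), beside 2.43% higher and 2.51% lower over all genes, and in KD against AL none was called.

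**Figure D5:**
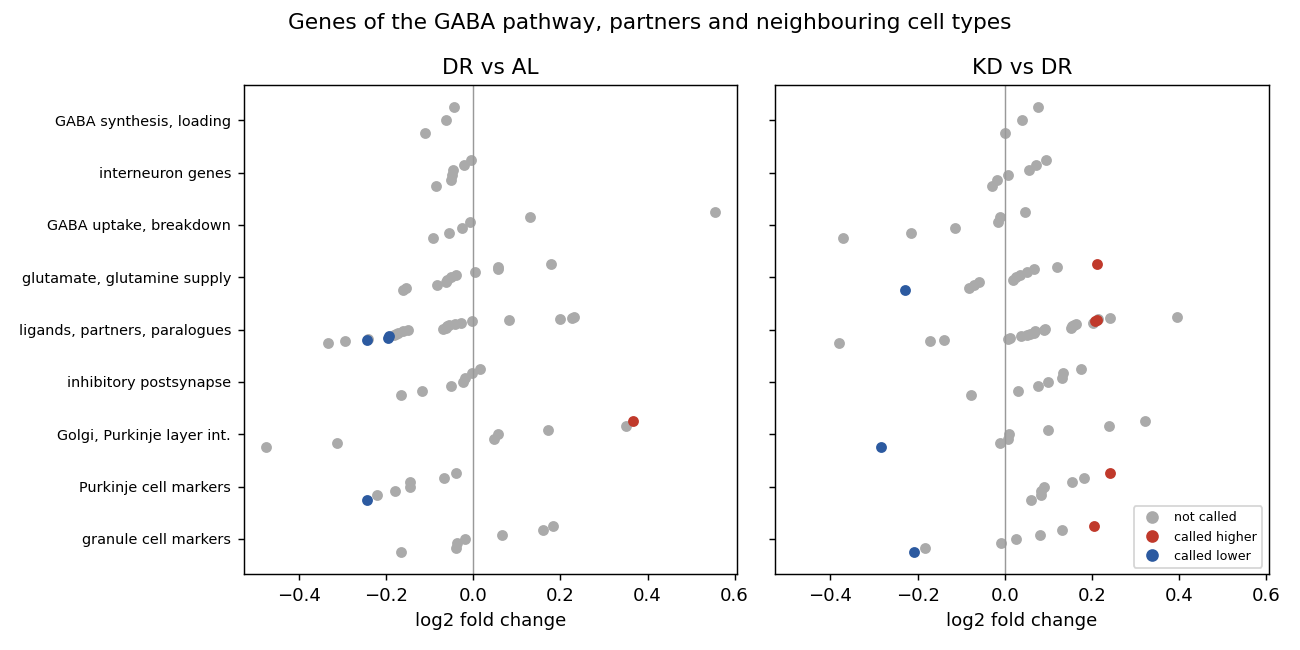
Log2 fold changes of the tested genes of each list, 1 point per gene, for DR against AL and KD against DR, with called genes coloured red where higher and blue where lower. None of the 9 genes of GABA synthesis and interneurons is coloured, while Lgi2 stands out at 0.37 in DR against AL.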

How the data were processed

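Poly(A) RNA of 12 mouse cerebellar cortex samples was sequenced from libraries that do not keep strand. Per the labels and methods, the authors trimmed reads with Trimmomatic 0.39, aligned them with STAR 2.7.0f and counted them per gene with featureCounts (Subread 1.6.4). The deposited values are raw counts per gene. Whether strand was used in counting is not given in the sources used here.

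From these counts, each diet pair was fitted on its own 8 libraries with edgeR 4.0.16 (filterByExpr with a minimum count of 10 and total of 15, TMM scaling, quasi-likelihood test), and p-values were adjusted over all genes tested by Benjamini-Hochberg at 0.05. Over the 18 pairs of libraries within a diet, the chi-square per gene was 4.95 to 11.55, above sampling noise. Only the edgeR test of DR against AL was checked on simulated data, with planted changes larger than those of the 9 genes. The other tests and diet pairs were not checked in this way. The 9 genes and all lists were chosen with earlier results of these data known. Genes outside the 9 were named where called, or as ligand, transporter or marker of known role, and a few that the counts include are not reported here. Alternatives covered scaling, filters, DESeq2 1.42.0, a fit of all 12 libraries and each mouse left out. Replicate numbers follow accession order and pair nothing.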

Additional observations from a re-analysis of the deposited data

Results flagged for a closer look

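Over 69 groups of 4 mice tested for a lone extreme value (Dixon's test), 2 had one, where chance gives about 1 in 20. Prkcd in DR replicate 2 was at 84.06 CPM, with the other DR mice at 106 to 107 CPM. Without that mouse the log2 fold change of Prkcd in DR against AL was 0.07 in place of 0.00 and was still not called. Nlgn2, a postsynaptic adhesion gene of inhibitory synapses, was at 283.6 CPM in DR replicate 1, while the remaining DR mice ran from 330.5 to 337.5 CPM. With every mouse included, the DR against AL value was -0.17 on the log2 scale (adjusted p = 0.131, edgeR), and without that mouse it was -0.11 (adjusted p = 0.215, edgeR).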

How the results depend on the processing

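None of the 9 genes was called in any of 375 values under the alternatives (9 genes, 3 comparisons, up to 14 settings each), whose lowest adjusted p (edgeR and DESeq2) was 0.183 for Slc32a1 in DR against AL without DR replicate 4. The sign changed in 32 of these values. In DR against AL, Prkcd was 0.0167 with library size only and 0.003825 for genes over 10 CPM. In KD against DR, Gad2 was -0.0195 and -0.00620 under the same settings, and Ptprk -0.0127 with library size only. With 1 mouse left out, the log2 fold changes that changed sign ran, in DR against AL, from -0.0816 to 0.0387 for Sorcs3 and from -0.0301 to 0.0736 for Prkcd. In KD against AL they ran from -0.0464 to 0.00237 for Kit, -0.0987 to 0.0229 for Sorcs3, -0.0434 to 0.168 for Nxph1 and -0.0153 to 0.0437 for Tfap2b. In KD against DR they ran from -0.0188 to 0.0229 for Gad2, -0.0566 to 0.0267 for Sorcs3, -0.0152 to 0.0381 for Ptprk and -0.107 to 0.00131 for Prkcd. Outside the 9 genes and the 32 values, Nlgn2 also changed sign in KD against AL, from -0.0129 to 0.0296.

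The number of genes called moved more. DR against AL gave 1258 without a filter, 1012 with DESeq2 and 235 to 712 with 1 mouse left out, the fewest without DR replicate 3. KD against AL gave 118 without a filter, 10 with DESeq2 and 0 to 6. KD against DR gave 1503 without a filter and 467 to 946. With library size only, 57% of DR against AL calls were higher in place of 43.2%, and 37.9% of KD against DR calls in place of 49.2%. In the interneuron list, DR against AL gave 7 without a filter and 1 to 3 with 1 mouse left out, KD against AL 1 without a filter, and KD against DR 9 with DESeq2 and 1 to 4. Among ligands, partners and paralogues, DR against AL gave 1 with library size only, 7 without a filter, 6 with DESeq2, 5 over 12 libraries and 0 to 4, and KD against DR 1 with library size only, 8 without a filter, 1 over 10 CPM, 7 with DESeq2 and 0 to 5. The cause was not tested. Depth limits Nxph1 most. No paired analysis was possible because the labels carry no replicate numbers.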
